A study of Mus musculus with 6 samples.

Results

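The genes examined here encode 30 subunits and recruiting factors of the corepressor complexes that carry the histone deacetylases HDAC1 and HDAC2. They were chosen by name, from what is known of the complexes and not by any measured value, with earlier results of these data known. All 30 were found among the 54532 gene rows. Of these genes, 13 belong to SIN3 complexes, 10 to NuRD, 4 to CoREST and 2 to both SIN3 and NuRD. The remaining gene is Rest, whose product brings CoREST and SIN3 to DNA. Bulk RNA-seq gave their transcript levels in dorsal root ganglia, where the cell bodies of sensory neurons lie along the spinal cord, in 6 libraries from C57BL/6 mice aged 8 weeks. In 3 libraries the mice carried Cre driven from Advillin, a gene of primary sensory neurons, and floxed Hdac2 (genotype Adv-Cre+/hdac2-flop++), and these are called Hdac2 cKO. The other 3 came from littermates with the same floxed alleles and no Cre (hdac2-flop++), called WT. Both groups thus share the floxed alleles, and Cre and the loss of Hdac2 cannot be told apart. No source used here says whether a library was 1 mouse or a pool.

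Histone deacetylases 1 and 2 do not bind DNA on their own. In SIN3 complexes a large scaffold holds the enzymes beside proteins that read histone marks. In NuRD the enzymes sit on MTA scaffolds next to an ATPase that moves nucleosomes, and in CoREST an RCOR protein couples them to the histone demethylase KDM1A. REST uses CoREST and SIN3 to silence neuronal genes in non-neuronal cells, and NuRD and CoREST take part in the maturation of neurons. These complexes were compared between the genotypes to describe the transcripts of the partners of HDAC2 in whole ganglia. The deletion was aimed at sensory neurons, and other cells of the ganglia are in the same values.

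Few subunits separated the genotypes. None of the 30 subunit genes passed limma's test over all genes at an adjusted p of 0.05, the same as for the 18410 genes tested (0 called, 0%). The deleted gene Hdac2 did not pass it either, with a log2 fold change of -2.47 and a limma adjusted p of 0.927. The absence of calls therefore does not show that the subunits were unchanged. Log2 fold changes are differences of mean log2 (value + 1), with WT subtracted from Hdac2 cKO. Those of the subunits had a median of 0.04, against 0.06 for all genes tested. Of the subunits 17 had values above 0 and 13 below. The 1 subunit whose values in all knockout libraries lay below all WT libraries was Rcor2, a CoREST scaffold, against a background of 3.91% of all genes in that direction. No subunit was higher without overlap, where the background was 4.63%, and either direction together made 8.54% of all genes. Rcor2 was also the single subunit with an unadjusted limma p under 0.05, which 1.85% of all genes had.

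All values are read counts that the authors divided by 1 factor per library, called normalised read counts. Reads assigned to genes ranged from 18943595 to 42070531 per library and genes detected from 24458 to 29181. The third WT library (WT 3) stood apart from all others. Its root mean square log2 difference to the other libraries was 1.52 to 1.82, against 0.61 to 1.09 among the other 5. WT 2 had the fewest reads and a share of even counts of 42.4% among genes with 1 to 20 reads, against 60.2 to 64.4% in the other libraries. All 7 markers of neurons were found in every library, with sums of 212501 to 371642 in WT and 221522 to 298914 in Hdac2 cKO. The 7 markers of myelinating Schwann cells were all lower on average in Hdac2 cKO, with sums of 128657 to 217345 against 234065 to 353743. The same held for the 6 skeletal muscle genes, with sums of 209 to 1016 against 2292 to 7982, and none of either list was at 0 in any library. Satellite glia sums were 136532 to 356315 in WT, with WT 3 highest, and 110230 to 147990 in Hdac2 cKO. Sums of fibroblast markers were 14490.1 to 21698 in WT and 10662 to 21851 in Hdac2 cKO, those of macrophages 1425 to 2554 and 1251 to 2757, those of endothelial cells 2723 to 5309 and 2460.2 to 3280.2, and those of erythroid cells 1926 to 44426 and 976 to 68991, all with overlap. Fewer cells of a type and less RNA per cell cannot be told apart in such samples. Whether these shifts take part in any subunit's values was not tested. Y-linked transcripts were present in WT 2, WT 3 and Hdac2 cKO 2 and at most 7.06 in sum in the others.

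WT 3 held the highest value of 11 subunits and the lowest of 12, that is 76.7% of the 30, against 71% of all genes tested. In NuRD it was the highest or lowest library for 10 of 10 subunits. The complexes, and the genes given by library, are therefore compared with and without it, and the plot of fold changes shows both values for all 30. Without WT 3 the median log2 fold change of the subunits was -0.02, against -0.01 for all genes. A log2 fold change beyond 0.5 in either direction was found for 5 of 30 subunits (Sap130, Brms1l, Mbd3, Rcor2 and Rcor3) and 29.7% of all genes. Without WT 3 it was found for 2 subunits (Rcor2 and Arid4b) and 19.3% of all genes.

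**Figure D1:**
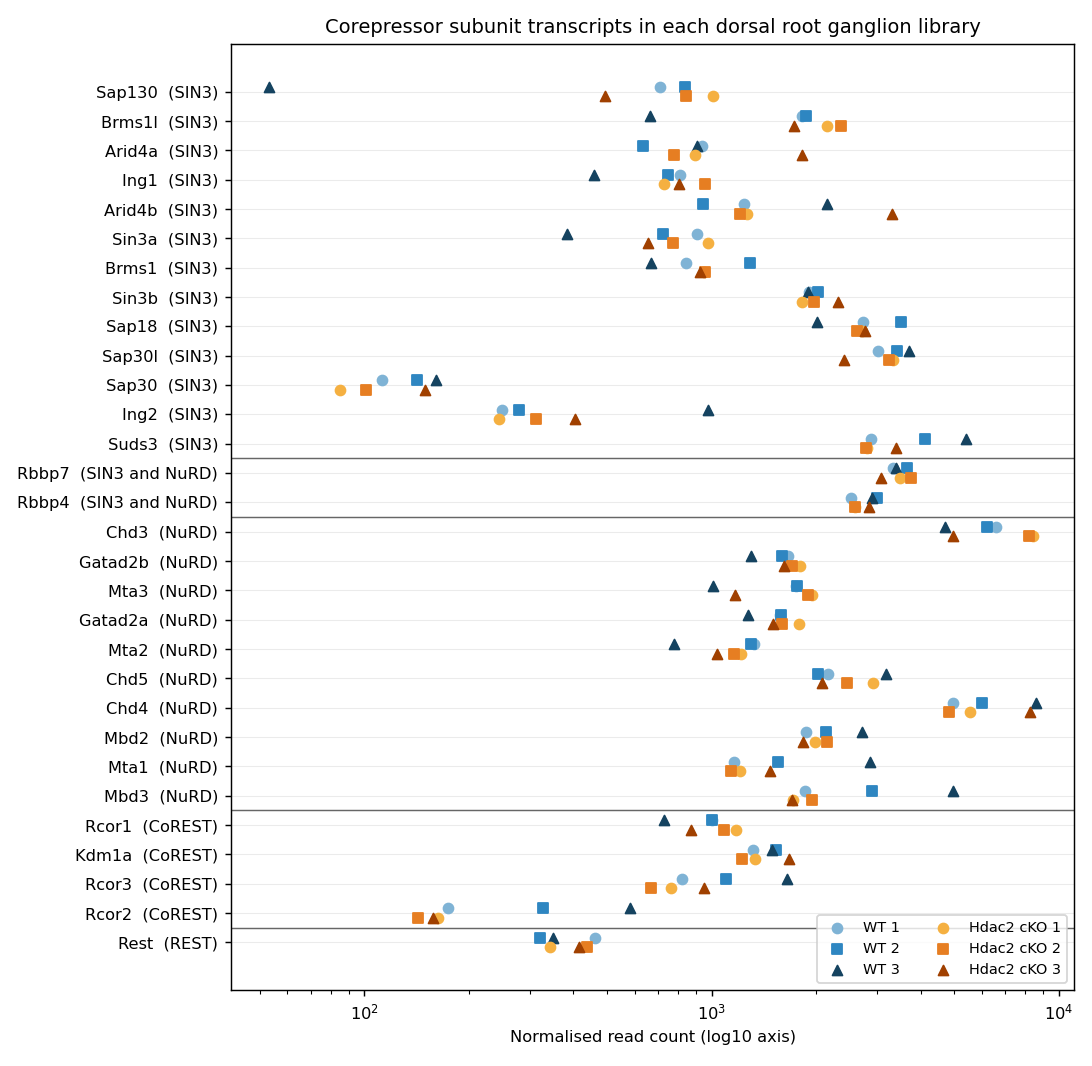
Normalised read counts (log10 axis) of the 30 corepressor subunits in each library, grouped by complex and ordered by fold change, with WT in blue, Hdac2 cKO in orange, and circles, squares and triangles for libraries 1, 2 and 3. The triangle of WT 3 lies at one end for 23 of 30 genes, and Rcor2 alone has all 3 knockout points below all WT points.

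CoREST had the median farthest from 0 of the 3 complexes. Its 4 genes had a median log2 fold change of -0.29, with 1 value above 0 and 3 below, and the median was -0.15 without WT 3. It was below 0 in every alternative tried, and no gene of the complex passed limma's test over all genes.

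Rcor2 (ENSMUSG00000024968, GRCm38 chromosome 19, 7267325 to 7275225, plus strand), a paralog of the scaffold RCOR1, was found at 174, 328 and 584 normalised read counts in the WT libraries. Its knockout values were 163, 143 and 158, each triplet given in the order of libraries 1, 2 and 3 here and throughout. The knockout libraries lay close together and the WT libraries far apart, and WT 1 was barely above the highest knockout library. The means were 362 ± 207 and 154 ± 10.6 (SD, n = 3 each). The log2 fold change was -1.06 (SE 0.45), with a 95% confidence interval from -2.11 to -0.01. Its unadjusted limma p was 0.049 and its limma adjusted p was 0.927. DESeq2 on the recovered reads gave -1.23 with an unadjusted p of 0.0133 and did not call it either (adjusted p = 0.951), while it called 0.145% of all genes. With the replicate number as a block, limma gave an adjusted p of 0.674 and DESeq2 of 0.657, where DESeq2 called 0.277% of all genes. With array weights limma called Rcor2 at -1.01 (adjusted p = 0.0429), as it did 3.08% of all genes. Among WT libraries those weights favoured the second, at 4.17 against 0.670 for WT 1 and 0.101 for WT 3. Without WT 3 the log2 fold change was -0.63 (95% confidence interval from -1.41 to 0.15), and without WT 1 it was -1.50.

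Rcor1 (ENSMUSG00000037896, chromosome 12, 111039351 to 111115901, plus strand), the founding scaffold that links KDM1A to the deacetylases, stood at 1004, 1001 and 732 in WT and at 1175, 1089 and 872 in Hdac2 cKO. Its groups overlapped, with the libraries numbered 3 lowest in both, and its log2 fold change was 0.20 (SE 0.23), or 0.05 without WT 3. Rcor3, a paralog, had a WT mean of 1191 ± 424 and a knockout mean of 795 ± 144 (SD, n = 3 each) and a log2 fold change of -0.54 (SE 0.30), which was -0.27 without WT 3. Kdm1a (ENSMUSG00000036940, chromosome 4, 136550540 to 136602723, minus strand) encodes the demethylase of the complex. It stood at 1313, 1535 and 1496 in WT and at 1333, 1226 and 1674 in Hdac2 cKO, with full overlap. Its log2 fold change was -0.05 (SE 0.21), and its 95% confidence interval ran from -0.53 to 0.44. Without WT 3 it was -0.02.

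**Figure D2:**
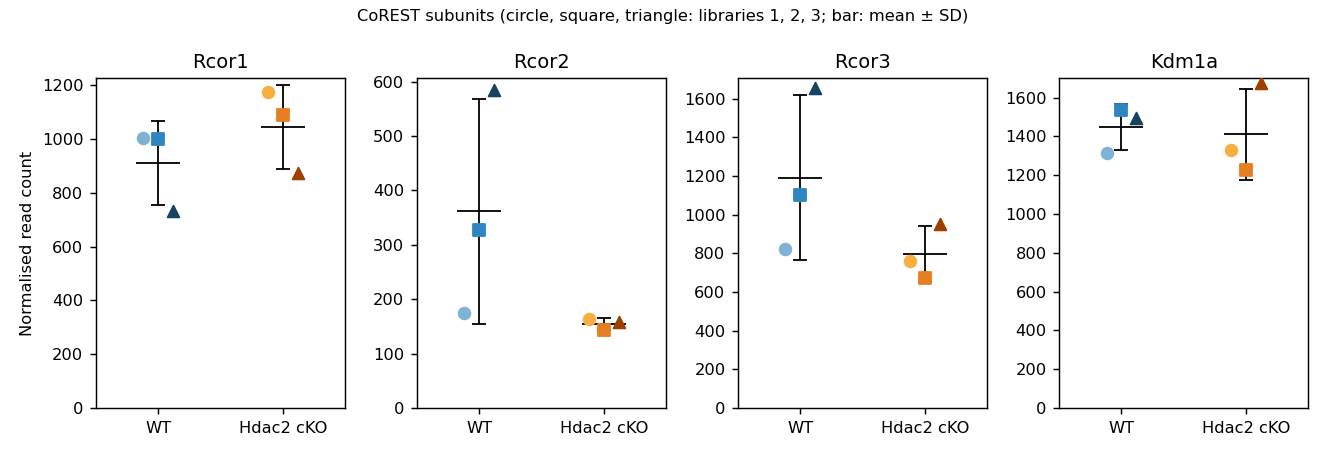
Normalised read counts of Rcor1, Rcor2, Rcor3 and Kdm1a in each library (points), with the mean and SD of each group (bars). Rcor2 stands at 143 to 163 in Hdac2 cKO and at 174 to 584 in WT, while the other 3 genes overlap.

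The 3 RCOR genes differ in their promoters, which are printed because Rcor2 alone of the subunits had groups that did not overlap. Whether the promoters have a part in the levels was not tested. For a gene with more than 1 promoter, the one with the lowest start coordinate was taken. The sequences are RefSeq's (GRCm38.p6), 250 bases before to 50 after the annotated start, 5′ to 3′ on the gene's strand, at chr12:111039117-111039416 (plus) for Rcor1, chr19:7267144-7267443 (plus) for Rcor2 and chr1:192137991-192138290 (minus) for Rcor3. Capitals mark matches on either strand to the motifs searched: the GC box GGGCGG, the CCAAT box CCAAT, the E-box CACGTG, the TATA box TATAAA, the cAMP response element TGACGTCA and the ETS site CCGGAAG.
Rcor1: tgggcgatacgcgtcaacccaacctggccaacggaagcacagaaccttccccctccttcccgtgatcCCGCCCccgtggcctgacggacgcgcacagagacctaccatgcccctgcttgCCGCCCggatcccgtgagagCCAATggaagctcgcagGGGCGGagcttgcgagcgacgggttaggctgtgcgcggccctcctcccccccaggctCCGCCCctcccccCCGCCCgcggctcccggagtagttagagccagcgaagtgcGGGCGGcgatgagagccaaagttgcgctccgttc
Rcor2: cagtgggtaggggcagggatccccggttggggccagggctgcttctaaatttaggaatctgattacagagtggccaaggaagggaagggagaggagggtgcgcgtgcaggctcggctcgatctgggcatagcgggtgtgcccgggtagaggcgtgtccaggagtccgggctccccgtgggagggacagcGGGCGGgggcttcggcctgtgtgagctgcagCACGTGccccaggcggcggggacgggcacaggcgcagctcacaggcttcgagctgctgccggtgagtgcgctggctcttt
Rcor3: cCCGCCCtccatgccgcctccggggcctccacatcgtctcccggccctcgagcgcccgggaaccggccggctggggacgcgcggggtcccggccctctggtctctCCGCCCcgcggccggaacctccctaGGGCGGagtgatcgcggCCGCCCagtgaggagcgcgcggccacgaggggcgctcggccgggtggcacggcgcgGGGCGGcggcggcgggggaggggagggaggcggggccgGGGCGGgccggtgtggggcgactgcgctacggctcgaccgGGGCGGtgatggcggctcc
Rcor2 held 21 CpG and 1 GC box, together with 1 E-box that the other 2 lacked. The promoter of Rcor1 had 31 CpG, 6 GC boxes and 1 CCAAT box, and that of Rcor3 had 47 CpG and 7 GC boxes. Their GC contents were 67.3% for Rcor2, 69.3% for Rcor1 and 81.7% for Rcor3. Such matches describe letters in a window and are not evidence of binding.

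For the subunits, promoters on chromosome 18 were left out of the search, so Mbd2 and Sap130 were not looked up. None was matched for Arid4a, Brms1, Chd3, Mta3 and Rest. This left 32 promoters of 23 of the 30 genes in the promoter table. These 32 promoters had a median of 27 CpG, from 14 to 50, against 7 for all 32851 promoters of the table. Their median GC content was 63.8% against 52.7%. The GC box was found in 87.5% of the subunit promoters and 35.7% of all, and the CCAAT box in 59.4% against 37.4%. The E-box was found in 6.25% against 7.15%, the TATA box in 15.6% against 13.6% and the ETS site in 9.38% against 8.86%. The cAMP response element was in none of the 32 and in 1.79% of all. Several genes have more than 1 promoter in the table, and GC-rich motifs go with GC content.

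NuRD had 6 genes with log2 fold changes above 0 and 4 below, and its median was 0.04, or 0.01 without WT 3. No gene of the complex separated the groups, and Mbd3 had the lowest log2 fold change. The ATPases come first.

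Chd4 (ENSMUSG00000063870, chromosome 6, 125095981 to 125130591, plus strand), the main nucleosome-remodelling ATPase of NuRD, stood at 4972, 6005 and 8613 in WT and at 5553, 4839.6 and 8244 in Hdac2 cKO. Both libraries numbered 3 were high, across the genotypes, and the log2 fold change was -0.07 (SE 0.29), or 0.15 without WT 3. Chd3 (ENSMUSG00000018474, chromosome 11, 69343273 to 69369406, minus strand), an alternative ATPase, showed the opposite order. It stood at 6603, 6229.9 and 4705 in WT and at 8459.6, 8218 and 4954 in Hdac2 cKO, with the libraries numbered 3 lowest. Its log2 fold change was 0.28 (SE 0.27), or 0.13 without WT 3. Within a library the log2 ratio of Chd3 to Chd4 was 0.41, 0.05 and -0.87 in WT and 0.61, 0.76 and -0.73 in Hdac2 cKO. The ratio was thus lowest in the libraries numbered 3 of both groups and overlapped between genotypes. Chd5 (ENSMUSG00000005045, chromosome 4, 152338651 to 152390194, plus strand), the ATPase known mainly from neurons, stood at 2158, 2031 and 3183 in WT and at 2909.8, 2464 and 2077 in Hdac2 cKO. Its groups overlapped, and its log2 fold change of 0.03 (SE 0.25) was 0.23 without WT 3.

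Mbd3 (ENSMUSG00000035478, chromosome 10, 80392539 to 80399550, minus strand) encodes the methyl-CpG-binding domain protein of NuRD that lacks a strong preference for methylated DNA. It stood at 1856, 2890.1 and 4971 in WT and at 1722, 1944 and 1710.04 in Hdac2 cKO. The knockout libraries lay at the low end of the WT range, with Hdac2 cKO 2 above WT 1. The means were 3239 ± 1587 and 1792 ± 132 (SD, n = 3 each), and the log2 fold change was -0.74 (95% confidence interval from -1.56 to 0.08). Mbd3 had an unadjusted limma p of 0.0717 and a limma adjusted p of 0.927. The log2 fold change was -0.37 without WT 3 and -0.44 with GC correction. Mbd2, which does bind methylated DNA and replaces MBD3 in a separate form of NuRD, had means of 2245 ± 431 and 1989 ± 157 (SD, n = 3 each).

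Among the MTA scaffolds that hold the deacetylases, Mta1 averaged 1856 ± 888 in WT libraries against 1273 ± 175 in the knockout (SD, n = 3 each). Its log2 fold change of -0.45 (SE 0.34) was -0.08 without WT 3. With WT given first, Mta2 stood at 1134 ± 307 and 1137 ± 88.5 and Mta3 at 1507 ± 430 and 1673 ± 437 (SD, n = 3 each). The GATAD2 proteins bridge the MBD and CHD subunits, and their transcripts were among the steadiest. Gatad2a had means of 1478 ± 180 and 1630.3 ± 146, and Gatad2b of 1519 ± 192 and 1709 ± 88.6 (SD, n = 3 each).

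SIN3 genes had 9 log2 fold changes above 0 and 4 below, a median of 0.07, and -0.03 without WT 3. None separated the groups.

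Of the scaffolds, Sin3a (ENSMUSG00000042557, chromosome 9, 57072040 to 57128366, plus strand) stood at 905, 727 and 382 in WT and at 977, 774 and 657 in Hdac2 cKO. WT 3 was lowest and the groups overlapped, with a log2 fold change of 0.33 (SE 0.36) that was -0.03 without WT 3. Sin3b (ENSMUSG00000031622, chromosome 8, 72723285 to 72758201, plus strand), its paralog, stood at 1912, 2028 and 1899 in WT and at 1824, 1972 and 2307 in Hdac2 cKO. It was nearly level over 5 libraries, with a log2 fold change of 0.06 (SE 0.19), or 0.04 without WT 3. Of the shared histone-binding WD40 proteins, Rbbp4 had means of 2806 ± 253 and 2673 ± 141 and Rbbp7 of 3466 ± 178 and 3445 ± 351 (SD, n = 3 each). Their log2 fold changes were -0.07 (SE 0.18) and -0.01 (SE 0.18).

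Sap130 (ENSMUSG00000024260), a SIN3-associated protein, gave the highest log2 fold change of the subunits. It stood at 709, 839.8 and 53.1 in WT and at 1012, 846 and 493 in Hdac2 cKO. WT 3 lay far below every other library, and the other 5 overlapped. The log2 fold change was 1.24 (95% confidence interval from -1.10 to 3.57; limma adjusted p = 0.927) and -0.04 without WT 3. Brms1l (ENSMUSG00000012076, chromosome 12, 55836324 to 55869736, plus strand), a relative of the metastasis suppressor BRMS1, came next. It stood at 1824, 1872 and 665 in WT and at 2144, 2367 and 1729 in Hdac2 cKO. Again WT 3 was low, and Hdac2 cKO 3 lay below both other WT libraries. The log2 fold change of 0.65 had an SE of 0.41 and a limma adjusted p of 0.927, and was 0.16 without WT 3. Brms1 had means of 935 ± 322 and 944 ± 16.9, and Suds3, which helps the complex dimerise and keeps its deacetylase active, of 4143 ± 1274 and 2995 ± 352 (SD, n = 3 each). The log2 fold change of Suds3 was -0.43 (SE 0.27), or -0.21 without WT 3.

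The SAP30 proteins tie the deacetylases to the scaffold. Sap30 had means of 138 ± 24.4 and 112 ± 33.3, and Sap30l of 3389.9 ± 349 and 2994 ± 512 (SD, n = 3 each). Sap18, which also works in an RNA-processing complex, had means of 2752 ± 746 and 2705 ± 72.5 (SD, n = 3 each). Of the ING proteins, whose PHD fingers read methylated histone tails, Ing1 had means of 672 ± 187 and 830.1 ± 116 and Ing2 of 502 ± 413 and 320.1 ± 80.2 (SD, n = 3 each). The Ing2 mean rested on WT 3, at 978, a value picked out after it was seen. Its log2 fold change was -0.38 (SE 0.54) and 0.25 without WT 3. Arid4a and Arid4b, which bind retinoblastoma proteins and carry DNA- and chromatin-binding domains, had their highest values in Hdac2 cKO 3, at 1824 and 3300.5, also picked out after they were seen. The means were 828 ± 167 and 1168 ± 571 for Arid4a and 1444 ± 627 and 1924 ± 1192 for Arid4b (SD, n = 3 each). Without Hdac2 cKO 3 the log2 fold change of Arid4b went from 0.33 to -0.14.

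Rest (ENSMUSG00000029249, chromosome 5, 77265491 to 77286432, plus strand), the zinc finger repressor of neuronal genes, stood at 461, 320.1 and 349.6 in WT and at 343, 438 and 416 in Hdac2 cKO. The groups overlapped throughout, and the log2 fold change was 0.09 (95% confidence interval from -0.51 to 0.69), or 0.05 without WT 3.

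**Figure D3:**
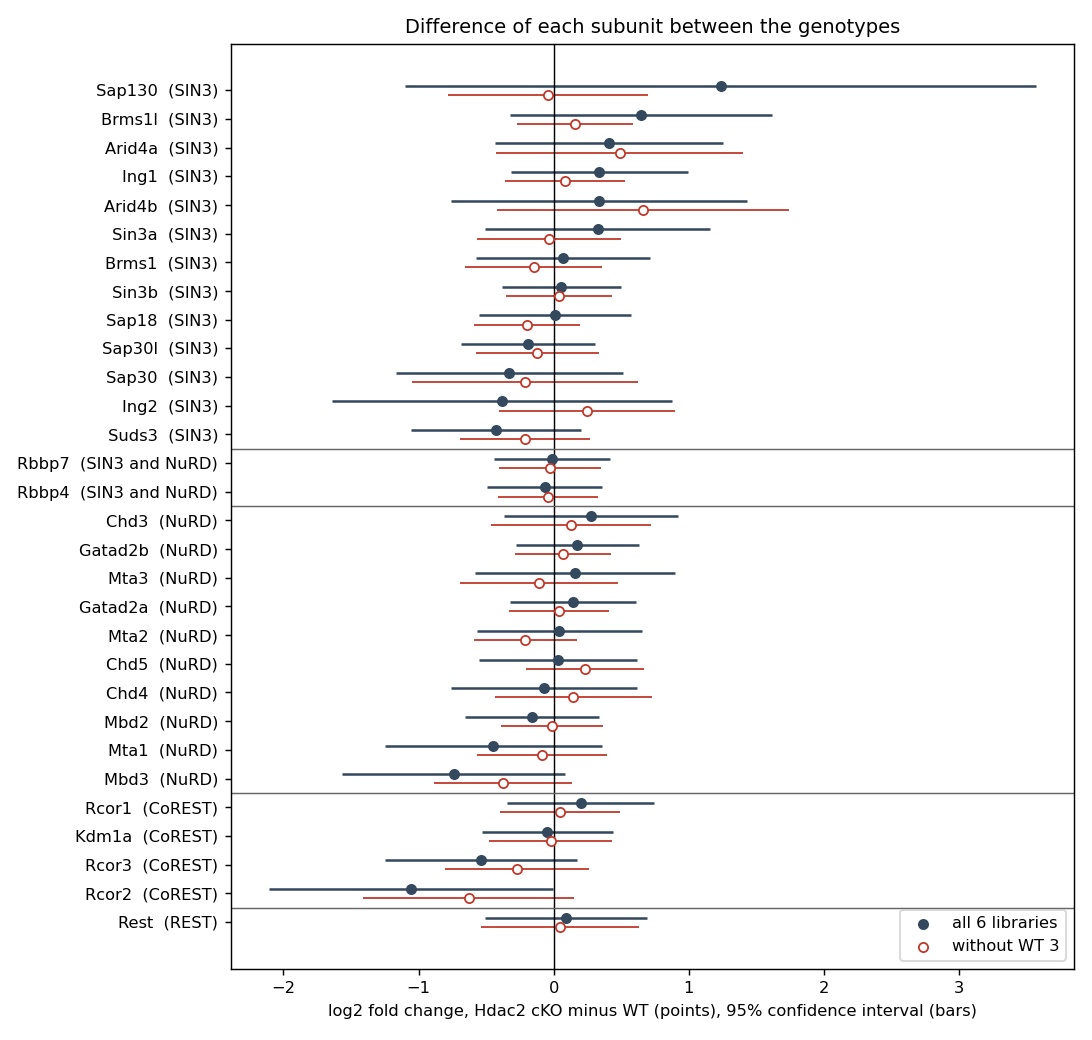
Log2 fold change (Hdac2 cKO minus WT) of each subunit with its 95% confidence interval from limma, for all 6 libraries (filled points) and without WT 3 (open points). The interval of Rcor2 ends just below 0 with all libraries and spans 0 without WT 3, and the point of Sap130 goes from 1.24 to -0.04.

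The 95% confidence interval of the log2 fold change lay within -1 and 1, which leaves out a 2-fold difference, for 18 of 30 subunits (60%) and 37.05% of all genes tested. Without WT 3 it did so for 26 subunits (86.7%) and 55.7% of all genes. The subunits had means of 125 to 6528 normalised read counts over the 6 libraries, with a median of 1577 against 438 for all genes. The fewest reads in any 1 library was 52. The highest library was 1.19 times the lowest for Rbbp4, 1.23 times for Rbbp7, 1.27 times for Sin3b and 1.37 times for Kdm1a. The ratio was under 1.5 for 8 of 30 subunits, its median was 1.84 (2.46 over all genes), and it reached 4.10 for Rcor2 and 19.0 for Sap130.

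Per kilobase of exon, in levels that can be set between genes, Sap30l led with a WT mean of 2945 normalised read counts per kilobase, followed by Mbd3 at 1630.1, Rbbp7 at 1191 and Chd4 at 814. The lowest were Rest at 52.2, Sap130 at 58.8, Arid4b at 85.1 and Rcor3 at 87.5. Of the 29 pairs of neighbours in this order, 27 had WT ranges that overlapped, the exceptions being Sap30l above Mbd3 and Rbbp7 above Chd4. Sap30l was first in both genotypes, and the largest move in rank was that of Suds3, from 11 to 17. Rcor2 went from rank 26 of 30 in WT to 30 in Hdac2 cKO, from 115 to 48.9 per kilobase. Exon length was that of all annotated exons of a gene together, so these levels are too low for genes that use few of them.

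**Figure D4:**
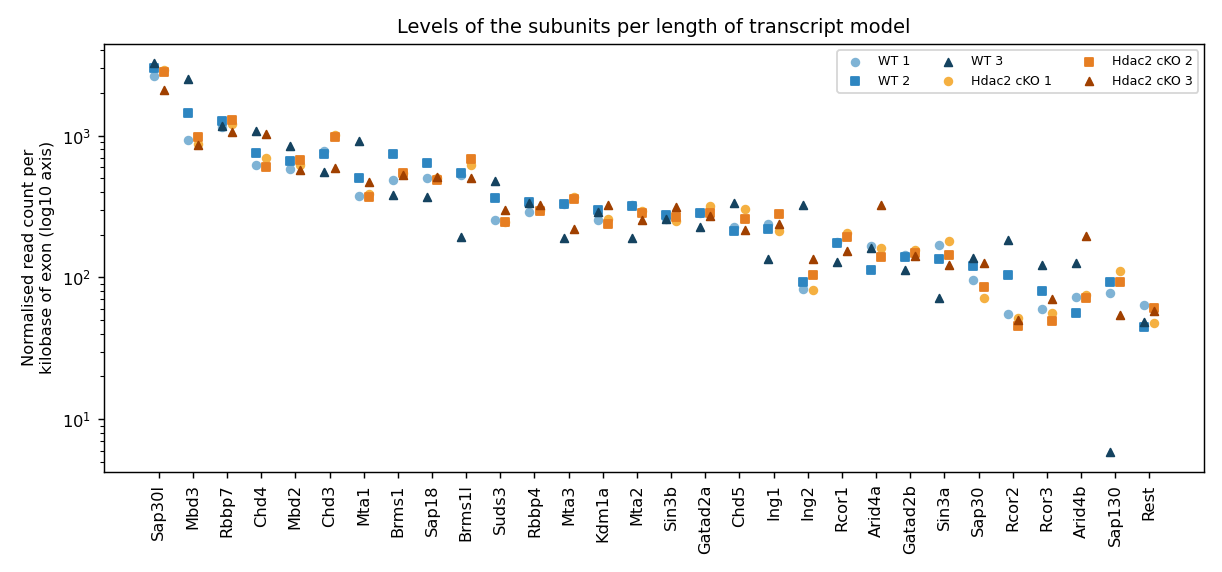
Normalised read counts per kilobase of annotated exon (log10 axis) for the 30 subunits, ordered by the WT mean, with each library as a point (WT blue, Hdac2 cKO orange; circles, squares and triangles for libraries 1, 2 and 3). Levels run from 2945 for Sap30l to 52.2 for Rest, and 27 of 29 neighbours in the order overlap in WT.

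Several subunits come as paralogs of which a complex holds 1, so shares within a family were compared, again per kilobase. Rcor2 made up 18.9, 28.8 and 42.5% of the RCOR family in WT and 16.4, 15.8 and 18.3% in Hdac2 cKO. Every knockout library was below every WT library, the nearest by under 1 percentage point. This share is computed from the Rcor2 values given above, so it is not a separate observation. Mbd3 made up 61.5, 68.6 and 74.7% of Mbd2 and Mbd3 together in WT and 58.4, 59.4 and 60.1% in Hdac2 cKO, again without overlap. Within a pair the share follows the ratio of its genes, so the ratio of Mbd2 to Mbd3 given next is the same observation. No share outside the RCOR and MBD families separated the genotypes. Shares were not tested. Even complete separation of 3 against 3 libraries can reach an exact two-sided permutation p of 0.1 only. In the ING and MTA families WT 3 differed from the other libraries and the genotypes overlapped. Ing2 made up 25.9, 29.6 and 70.7% of the ING pair in WT and 27.5, 26.9 and 36.2% in Hdac2 cKO. Mta1 made up 36.3, 43.7 and 70.7% of the MTA family in WT and 37.0, 36.4 and 50.02% in Hdac2 cKO. Gatad2a and Gatad2b kept the narrowest range of the families compared, with Gatad2a at 65.6 to 67.1% of the pair over the 6 libraries.

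Of the 14 log2 ratios between paralogs tested, that of Mbd2 to Mbd3 alone did not overlap between the groups. It was 0.02, -0.43 and -0.87 in WT and 0.20, 0.14 and 0.10 in Hdac2 cKO, so the knockout libraries were close to one another and WT 1 was next to them. The difference was 0.58 (exact two-sided permutation p = 0.1, the smallest that 3 against 3 allows), with an adjusted p of 0.7 over the 14 ratios. It was 0.36 without WT 3. The log2 ratio of Rcor2 to Rcor1 was -2.52, -1.61 and -0.33 in WT and -2.85, -2.93 and -2.46 in Hdac2 cKO. WT 1 fell among the knockout libraries, and the difference of -1.26 gave an exact two-sided permutation p of 0.2 (adjusted p = 0.7). It was -0.68 without WT 3.

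**Figure D5:**
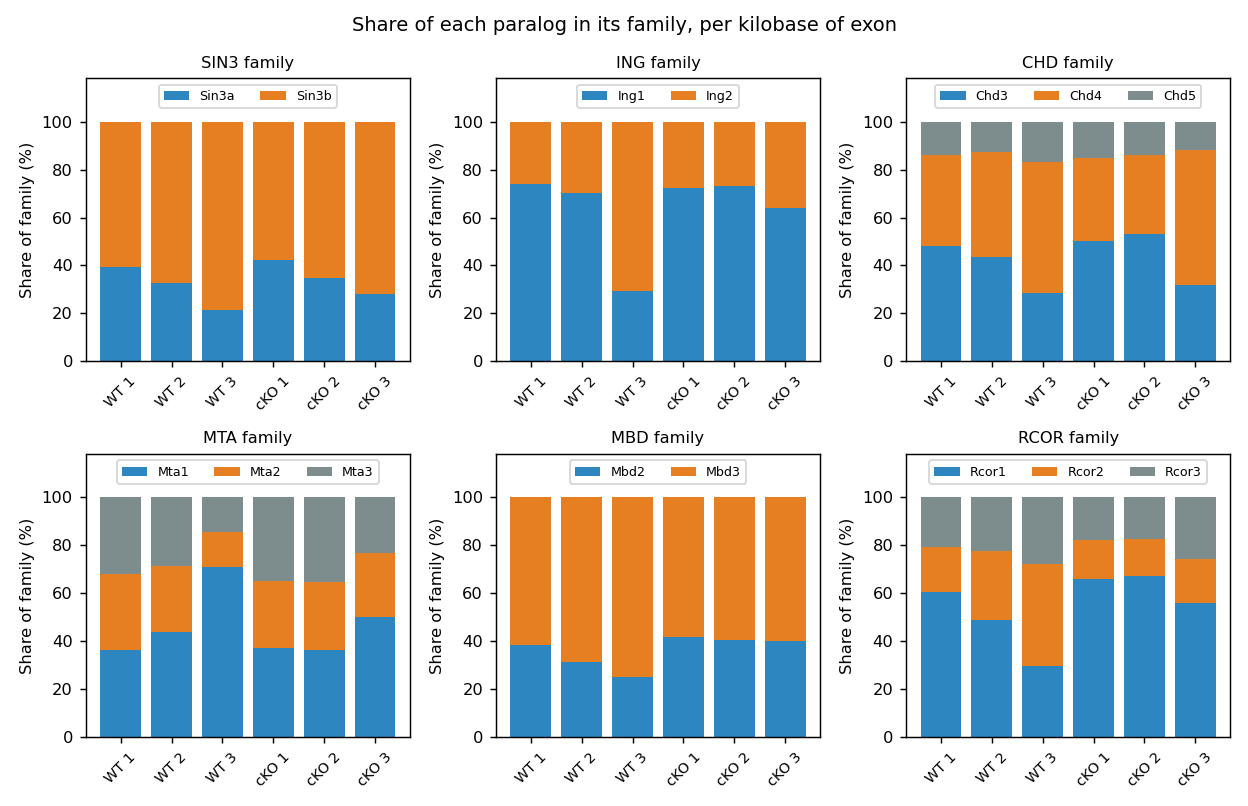
Share of each paralog in its family (%, from normalised read counts per kilobase of exon) in each library, for the SIN3, ING, CHD, MTA, MBD and RCOR families. Rcor2 and Mbd3 have smaller shares in each knockout library than in each WT library, and the ING and MTA bars of WT 3 differ from the other 5.

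Base composition went with the values of several libraries. Across the 30 subunits, the Pearson correlation of a library's deviation from the gene's mean log2 value with the GC content of the exons was -0.18, 0.37 and 0.20 in WT and -0.06, -0.05 and -0.59 in Hdac2 cKO. Over 18401 genes it was -0.05, 0.18 and 0.09 in WT and -0.08, -0.12 and -0.13 in Hdac2 cKO. Hdac2 cKO 3 was thus farthest from 0 among the subunits and WT 2 over all genes. The points of each correlation share a library. Sap30l, with a GC content of 66.3%, went from a log2 fold change of -0.19 to 0.20 with GC correction, and Rcor2, with 61.6%, from -1.06 to -0.79.

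Some reads cannot be given to 1 gene. In Brms1, 79% of exon bases are also annotated to a second gene model on the same strand, and 74.4% of its 50-base words occur in that model. Shared words made up 17.2% for Rbbp4, 15.3% for Sap18, mostly with the copy Sap18b, 11.2% for Rbbp7 and 7.16% for Rcor3. Rcor2, Mbd3 and Kdm1a shared none. The second model at Brms1 had no value here, unlike the other gene models that overlap a subunit's exons. How reads of 2 genes were counted is not stated in the sources used here. Whether the overlap affected the values of Brms1 was not tested, and they are uncertain.

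The enzymes these subunits hold, and other partners, formed a list of 14 genes, of which 13 were tested and Sap25 was at 0 in every library. Of the 13, 5 had log2 fold changes above 0 and 8 below, with a median of -0.05, and DESeq2 called 1, Hdac2. Hdac2 itself stood at 2816, 1715 and 3498 in WT and at 499, 372 and 535 in Hdac2 cKO, lower in every knockout library. This is a log2 fold change of -2.47, with an SE of 0.31, an adjusted p of 0.927 in limma and one of 6.16e-09 in DESeq2. Hdac1 stood at 1082, 677 and 224 in WT and at 1143, 1154 and 506 in Hdac2 cKO, with a log2 fold change of 0.67 (SE 0.61) that was 0.03 without WT 3. The groups also did not overlap for Sinhcaf, a SIN3 subunit at 90.4 ± 37.0 against 59.2 ± 5.23, and for Cdk2ap1, a NuRD subunit at 1976 ± 243 against 1765 ± 46.8, WT first (SD, n = 3 each). Both were lower in Hdac2 cKO, and neither passed. Their log2 fold changes were -0.53 and -0.16, and -0.22 and -0.06 without WT 3. With Hdac2 this makes 3 of 13 lower without overlap, against 3.91% of all genes. Hdac2 is the deleted gene, so its place in that count was set by the design.

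Neuronal genes known as targets of REST were read beside it. Of 24 tested, 19 had log2 fold changes above 0 and 5 below, with a median of 0.19, which was 0.05 without WT 3, and none passed by limma or DESeq2. Over all genes 10185 of 18410 were above 0. The groups did not overlap for 5 of the 24, all higher in Hdac2 cKO, as was the case for 4.63% of all genes. They included Syt1, the calcium sensor of vesicle release, with WT at 6350.0 ± 798 and the knockout at 8096 ± 415, and Scg2, a secretory granule protein, at 6768 ± 219.6 and 8483 ± 1296 (SD, n = 3 each). The log2 fold changes were 0.36 for Syt1 and 0.31 for Scg2, and 0.42 and 0.33 without WT 3. Of the 7 neuron markers, 3 had log2 fold changes above 0 and 4 below, with a median of -0.01. Elavl4 and Isl1 among them were also higher without overlap, by log2 fold changes of 0.45 and 0.37. The part of neuronal RNA in the values of these targets was not tested. One of the targets, Snap25, is also among the neuron markers.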

How the data were processed

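Ganglia were frozen and their RNA taken up in Trizol, per the labels' protocols. The submitters' processing notes name the tools HISAT2, SAMtools, featureCounts and DESeq2 and the build mm10. Tool versions, annotation and strand setting: not given in the sources used here. Reads of genes that overlap on opposite strands may thus be mixed. Per the file headers and values, the deposited signal is read counts divided by 1 size factor per library; dividing by each library's step gave whole reads for 100% of values within 0.01. Of 54532 rows, 54495 matched GENCODE release M21 (GRCm38) and 17327 were at 0 throughout.

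The main test was limma 3.58.1 (R 4.3.3) with trend and robust settings, run on log2 of the value plus 1 for the 18410 genes with a value of 10 or above in 3 libraries or more, two-sided, adjusted by Benjamini-Hochberg, threshold 0.05. Fold changes on this scale understate those of low genes. edgeR 4.0.16 and DESeq2 1.42.0 were run on the recovered reads. edgeR called 0 genes, with 390 at an unadjusted p under 0.05, and DESeq2 26; limma had 341 at an unadjusted p under 0.05. Paralog ratios were compared by exact permutation over libraries. The limma, edgeR and DESeq2 fits and the GC correction were first tested on simulated data. The simulated counts had the same spread in all 6 libraries. They therefore do not show how the fits perform with a library like WT 3. P-values measure the spread between libraries.

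All 30 genes are named, with library values for those whose groups do not overlap, an unadjusted p under 0.05, the 2 smallest p in each direction, scaffolds, ATPases, Kdm1a and Rest. Members, lists and tests were chosen with earlier results of these data known. Alternatives were other tests, scalings, pseudocounts, filters, the replicate block, array weights, GC and length corrections, a sex term and leaving out libraries. Same-numbered libraries deviated together with correlations of 0.40, 0.15 and 0.42 for numbers 1, 2 and 3, so by rule fits with the replicate block count as paired, although WT 1 and Hdac2 cKO 2 had 0.34 and the labels state no pairing. The main test and the permutation tests are unpaired, and the block is an alternative. No libraries agreed within sampling noise (chi-square per gene at least 17.3).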

Additional observations from a re-analysis of the deposited data

How the results depend on the processing

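The direction of the log2 fold change stayed the same under all 21 alternatives for 14 of 30 subunits (Arid4a, Brms1l, Chd3, Gatad2a, Gatad2b, Ing1, Mbd3, Mta1, Rbbp4, Rcor1, Rcor2, Rcor3, Sap30 and Suds3) and turned in at least 1 for 16. Of 630 such values, 571 kept direction and call, 58 turned and 1 gained a call, Rcor2 with array weights (-1.01). No turned value passed a test, and the cause was not tested. The count of genes called, 0 by limma, was 26 by DESeq2, 59 by DESeq2 with the replicate block, 567 with array weights and 5 without both libraries numbered 3. The count of subunits called was 1 with array weights and 0 in each other alternative. The median of SIN3 was 0.16 with GC correction, with or without the replicate block, and ranged from -0.035 to 0.20 when single libraries were left out. The replicate block in limma and in DESeq2 changed no subunit's call. With same-numbered libraries as pairs, the exact permutation p of the ratio of Mbd2 to Mbd3 was 0.25, the smallest that 3 pairs allow. The paired fits with GC or length correction turned the same genes as those without the block.

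Turned log2 fold changes were, with edgeR, -0.040 for Sap18, -0.0011 for Brms1, -0.016 for Chd5 and -0.012 for Mta2, and with DESeq2 -0.024 for Sap18. With array weights they were -0.055 for Sin3b, -0.33 for Sap18, -0.34 for Brms1, 0.039 for Ing2, -0.14 for Mta2 and 0.0014 for Rbbp7. With GC correction, with or without the replicate block, they were -0.19 for Sap18, 0.20 for Sap30l and -0.056 for Rest. With length correction, with or without the block, they were -0.047 for Sin3b, -0.074 for Sap18, -0.12 for Chd5, -0.030 for Mta2 and -0.010 for Rest. With a sex term they were -0.0066 for Sap18, -0.018 for Mta2 and 0.035 for Rbbp7. Without both libraries numbered 3 they were -0.054 for Sin3b, -0.21 for Sap18, 0.030 for Sap30l, -0.13 for Brms1, 0.066 for Ing2, -0.15 for Mta2, 0.042 for Mbd2, 0.055 for Rbbp7 and 0.075 for the ratio of Arid4b to Arid4a.

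Leaving out 1 library at a time, log2 fold changes ranged from -0.035 to 0.59 for Sin3a, -0.037 to 0.13 for Sin3b, -0.20 to 0.20 for Sap18, -0.041 to 1.94 for Sap130, -0.15 to 0.33 for Brms1, -0.14 to 0.66 for Arid4b, -0.73 to 0.25 for Ing2, -0.29 to 0.15 for Chd4, -0.091 to 0.23 for Chd5, -0.21 to 0.17 for Mta2, -0.11 to 0.40 for Mta3, -0.18 to 0.048 for Kdm1a, -0.079 to 0.068 for Rbbp7 and -0.017 to 0.25 for Rest. Log2 ratios ranged from -0.54 to 0.075 for Sin3b to Sin3a, -0.12 to 0.52 for Sap30l to Sap30, -0.25 to 0.17 for Arid4b to Arid4a, -1.23 to 0.17 for Ing2 to Ing1, -0.019 to 0.82 for Chd3 to Chd4, -0.080 to 0.45 for Chd5 to Chd4, -0.91 to 0.12 for Mta1 to Mta2 and -0.034 to 0.18 for Rbbp7 to Rbbp4. With 3 libraries a group and the spread of WT 3, a 2-fold difference lies outside the interval of 18 of 30 subunits only.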

Other observations

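Other complexes that use histone deacetylases, the NCoR and SMRT complexes built around HDAC3 and the MiDAC complex, were read from a list of 9 genes, of which 8 were matched and tested. Of these, 6 had log2 fold changes above 0 and 2 below, with a median of 0.13 that was 0.00 without WT 3, and 0 passed by limma or DESeq2. Ncor1, the scaffold of the NCoR complex, stood at 3951 ± 848 normalised read counts in WT and 5236 ± 978 in Hdac2 cKO, and Hdac3 at 2372 ± 705 and 1993 ± 353 (SD, n = 3 each). Tbl1x, a subunit that exchanges corepressors for coactivators, was higher by 0.65 on the log2 scale (SE 0.49), and by 0.05 without WT 3. No gene of this list separated the groups.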
